A study of Homo sapiens with 6 samples.

Results

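Transcripts of 32 nucleoporin genes, the protein components of the nuclear pore complex (NPC), were followed by RNA-seq in DLD-1, a line from a human colorectal adenocarcinoma. The genes were taken from a list of nucleoporins and sorted into 6 subcomplexes, and all 32 passed the filter of more than 1 CPM (counts normalised for sequencing depth) in at least 3 libraries, out of 58051 genes in the count table and 16974 that passed. In these cells both copies of TPR carried an auxin-inducible degron (AID) and NeonGreen, a fluorescent protein, and the RCC1 gene carried a cassette for TIR1, the plant F-box protein that lets auxin direct an AID-tagged protein to the proteasome. The line is a selected clone with the labelled genotype AID-NeonGreen-TPR, and every library came from it. The LMB group (3 libraries) received 200 nM Leptomycin B, a drug that blocks the export receptor CRM1, for 3 h, and the LMB+auxin group (3 libraries) received the same drug for the same time, with 1 mM auxin present for the last 2 h. These are the incubation times recorded in the labels, while the sample titles name 2 h for both groups. Neither untreated cells nor cells given only auxin were analysed here. The comparison asks how nucleoporin RNA differed when TPR protein was removed with CRM1 already blocked, and the action of auxin itself and of TPR loss cannot be told apart.

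The NPC is the channel between nucleus and cytoplasm. Its scaffold is built from the Y complex and the inner ring, it is anchored by membrane nucleoporins, and its central channel is filled with nucleoporins rich in phenylalanine-glycine (FG) repeats that form the permeability barrier. Filaments extend into the cytoplasm on the outer side, and on the inner side the nuclear basket, of which TPR forms the filaments, receives export cargo. Scaffold nucleoporins are among the longest-lived proteins of the cell, and the complexes are put together both after mitosis and in interphase.

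The total count was 28261903 to 35992425 per library, and a nucleoporin had 450 to 20645 counts in a library. All 8 epithelial markers, among them EPCAM, CDH1 and KRT8, passed the same filter, with a summed level of 7670 to 7730 CPM in LMB and 7510 to 8120 CPM in LMB+auxin. The 4 fibroblast and the 4 leukocyte markers summed to at most 1.00 CPM in any library, and the 3 endothelial markers to at most 5.65 CPM. Auxin removes the TPR protein and leaves its mRNA, so no nucleoporin value here checks the labels. The labels do not say that the 3 libraries of a group came from separate cultures, whereas the methods of the study describe 3 independent biological replicates.

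Nucleoporin mRNAs differed little between LMB+auxin and LMB. Each value is a mean over all cells of a culture, in which fewer expressing cells and less RNA per cell cannot be told apart. By the quasi-likelihood test of edgeR, where a call needed an adjusted p (Benjamini-Hochberg) below 0.05 and a difference of 1.3-fold or more, 0 of 32 nucleoporins were called, beside 0.00589% of all genes tested. Their adjusted p ran from 0.954 to 0.997. At an unadjusted p under 0.05 there was 1 nucleoporin, TPR, beside 4.37% of all genes. DESeq2 called 0 of 32, beside 0.0648% of all genes.

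For most nucleoporins the spread between libraries left room only for small changes. The 95% interval of the log2 fold change lay inside 1.3-fold either way, that is inside 0.379 on the log2 scale, for 27 of 32 nucleoporins, beside 57.1% of all genes. The 5 whose intervals reached further were NUP107, SEH1L, NUP62, NUP210 (-0.418 to 0.402) and NUP42 (-0.199 to 0.475). All genes include some near the filter of 1 CPM, while the nucleoporins averaged 16.4 to 562 CPM. Their share is thus not set against genes of like level. Replicates with the same number deviated together in the 2 groups, least clearly in pair 3. Their deviations from the group means correlated at 0.531 in pair 1, 0.691 in pair 2 and 0.273 in pair 3. A fit with the replicate number as a block narrowed the intervals, so that those of all 32 nucleoporins lay inside 1.3-fold, beside 75.6% of all genes. With the block, 0 of 32 were called by edgeR, beside 1.19% of all genes, and 0 of 32 by DESeq2, beside 0.177%.

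**Figure D1:**
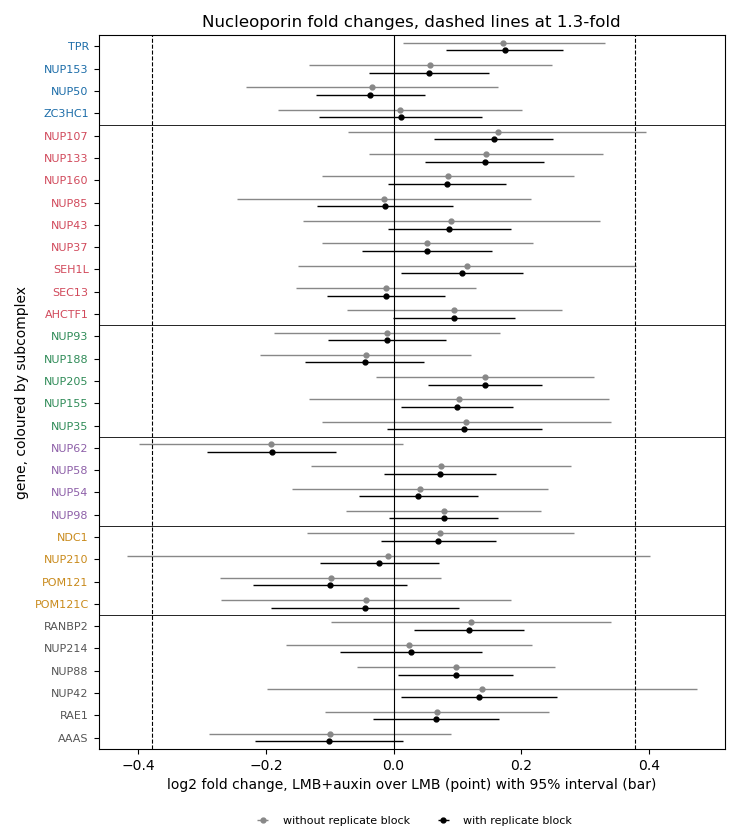
Log2 fold change of LMB+auxin over LMB for each of the 32 nucleoporins (horizontal axis), by subcomplex, from 3 libraries a group. Points are the fitted values and bars the 95% intervals, grey without and black with the replicate block; the black bars of all 32 genes stay between the dashed lines at 1.3-fold.

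Below that size the values leaned upward. The log2 fold change was above 0 for 22 of 32 nucleoporins, beside 49.2% of all genes, with a median of 0.0706 over the nucleoporins and of -0.00274 over all genes tested. Of the nucleoporins, 17 of 32 were higher with auxin in all 3 replicate pairs, beside 21.3% of all genes, and 2 of 32, NUP62 and AAAS, were lower in all 3, beside 20.5%. The median of the nucleoporins was 0.119 in pair 1, 0.0513 in pair 2 and 0.0376 in pair 3, so it was above 0 in each pair and largest in pair 1. It rested on few libraries, since without LMB+auxin replicate 1 it was 0.0124 with 19 of 32 above 0, and without LMB replicate 2 it was 0.0269 with 21 of 32.

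By subcomplex, the median log2 fold change was 0.102 over the 5 inner ring genes, 0.0903 over the 9 genes of the Y complex, 0.083 over the 6 genes of the cytoplasmic side, 0.0579 over the 4 FG channel genes, 0.0341 over the 4 basket genes and -0.0256 over the 4 membrane genes. Single genes ran from -0.192 to 0.0786 in the FG channel and from -0.0434 to 0.144 in the inner ring. Differences between subcomplexes were not tested, and the medians moved with single libraries. Without LMB+auxin replicate 1 they were 0.0257 in the inner ring, 0.0152 in the Y complex, 0.0325 on the cytoplasmic side, -0.00523 in the FG channel, -0.00737 in the basket and -0.00244 in the membrane group. Without LMB replicate 2 the inner ring was at 0.0282, below the Y complex at 0.0541, and the cytoplasmic side at 0.0248, the FG channel at 0.0145 and the basket at 0.0227. Without LMB+auxin replicate 2 they were 0.197 in the inner ring, 0.149 in the Y complex, 0.136 on the cytoplasmic side, 0.122 in the FG channel, 0.101 in the basket and -0.131 in the membrane group. Without LMB+auxin replicate 3 the basket was at 0.0134, the FG channel at 0.033 and the membrane group at -0.0132, and the membrane group was at -0.0793 without LMB replicate 1 and at 0.0102 without LMB replicate 3.

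In the nuclear basket, TPR, the degron-tagged gene itself, had the highest log2 fold change of the 32. TPR (ENSG00000047410, 51 exons, minus strand, chr1:186311652-186375693 in GRCh38) was at 162.5, 156.7 and 179.8 CPM in LMB replicates 1, 2 and 3 and at 191.8, 184.4 and 186.2 CPM in LMB+auxin. Every auxin library was above every LMB library, and TPR was the only nucleoporin whose groups did not overlap: 1 of 32 was higher, beside 4.89% of all genes, and 0 of 32 were lower, beside 6.63%. The means were 166.3 ± 12.0 and 187.5 ± 3.88 CPM (SD, n = 3), a log2 fold change of 0.17 (SE 0.0705, 95% interval 0.0142 to 0.331), with an adjusted p of 0.954 by edgeR's quasi-likelihood test. With the replicate block the log2 fold change was 0.17 (SE 0.0465) with an adjusted p of 0.0133 by edgeR, and DESeq2 with the block gave 0.0988.

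NUP153 is an FG nucleoporin of the basket that binds NUP50. NUP153 (ENSG00000124789) was at 148.2, 138.1 and 157.1 CPM in LMB and at 167.0, 138.2 and 156.4 CPM in LMB+auxin. The groups overlapped, with LMB+auxin replicate 1 above every LMB library. Pair 2 and pair 3 differed by 0.00125 and -0.0071 on the log2 scale, and the log2 fold change of 0.06 (SE 0.0851) was carried by pair 1, at 0.172. An antisense gene, NUP153-AS1, covers 10.6% of its exonic bases, and its mean count was 240.0 beside 4710.5 for NUP153.

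NUP50, which helps importin-alpha release its cargo, was at 427.6, 370.2 and 397.5 CPM in LMB and at 421.0, 345.7 and 400.6 CPM in LMB+auxin. Its log2 fold change was -0.03 (SE 0.0884), and replicate 2 was the lowest library of each group. ZC3HC1, a basket protein that holds further TPR in place, was at 26.77, 26.17 and 24.56 CPM in LMB and at 26.73, 23.84 and 27.46 CPM in LMB+auxin. It had a log2 fold change of 0.01 (SE 0.0851), higher in 1 of 3 pairs.

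The Y complex is the outer scaffold, and 7 of its 9 genes had a log2 fold change above 0. NUP107 (ENSG00000111581, 28 exons, chr12:68686951-68745809), a stem subunit, had the largest difference among those that moved the same way in every pair. It was at 171.8, 150.9 and 176.9 CPM in LMB and at 213.2, 162.4 and 183.7 CPM in LMB+auxin. LMB+auxin replicate 1 stood highest and replicate 2 lay among the LMB libraries, although each pair differed upward, by 0.311, 0.106 and 0.0543 on the log2 scale. The log2 fold change was 0.16 (SE 0.104), with an adjusted p of 0.954 by edgeR without the block and of 0.033 with it.

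NUP133, the subunit that binds NUP107 at the end of the stem, was at 145.5, 132.0 and 145.2 CPM in LMB and at 170.4, 142.2 and 154.9 CPM in LMB+auxin. Its log2 fold change of 0.15 (SE 0.0816) was close to that of NUP107, and its adjusted p with the block was 0.0581 by edgeR. AHCTF1, the subunit that brings the complex to chromatin after mitosis, was at 110.5, 105.1 and 118.1 CPM in LMB and at 125.0, 110.0 and 121.4 CPM in LMB+auxin. It was higher in 3 of 3 pairs with a log2 fold change of 0.10 (SE 0.0752), and 31.5% of the 100-base stretches of its transcript also occur in AHCTF1P1, a pseudogene at 1.004 to 1.502 CPM. SEC13, shared with the COPII vesicle coat, was at 155.6, 148.8 and 149.4 CPM in LMB and at 145.8, 147.7 and 156.7 CPM in LMB+auxin.

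The auxin libraries of SEC13 lay on both sides of its LMB range, with a log2 fold change of -0.01 (SE 0.063). NUP85, which binds SEH1L in an arm of the Y, had -0.01 (SE 0.103). The remaining subunits NUP160, NUP43, NUP37 and SEH1L had log2 fold changes of 0.08 (SE 0.0883), 0.09 (SE 0.104), 0.05 (SE 0.0735) and 0.12 (SE 0.118), and none of these passed a test of the treatment.

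The inner ring lines the channel wall. NUP205 (ENSG00000155561, 43 exons, chr7:135557917-135648757), one of its large solenoid subunits, was at 223.7, 211.2 and 239.4 CPM in LMB and at 263.1, 230.3 and 251.5 CPM in LMB+auxin. Replicate 2 with auxin lay inside the LMB range and the other 2 auxin libraries lay above it. The log2 fold change was 0.14 (SE 0.0762), higher in 3 of 3 pairs, with an adjusted p by edgeR of 0.954 without and 0.0462 with the block. NUP188, the other large subunit that competes with NUP205 for NUP93, was at 150.9, 148.8 and 159.2 CPM in LMB and at 135.6, 155.7 and 153.9 CPM in LMB+auxin. Its log2 fold change was -0.04 (SE 0.0736) and it was higher in 1 of 3 pairs. NUP93, which links the ring to the channel nucleoporins, was at 145.7, 133.7 and 150.7 CPM in LMB and at 142.0, 131.5 and 153.6 CPM in LMB+auxin. It had a log2 fold change of -0.01 (SE 0.0789), and NUP155 and NUP35, which sit by the membrane, had 0.10 (SE 0.105) and 0.11 (SE 0.101).

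Among the FG channel genes NUP62 had the lowest log2 fold change of the 32. NUP62 (ENSG00000213024, 3 exons, minus strand, chr19:49906825-49929764), which forms the central channel trimer with NUP54 and NUP58, was at 78.25, 68.83 and 84.20 CPM in LMB and at 70.69, 61.01 and 70.75 CPM in LMB+auxin. It was lower in 3 of 3 pairs, by -0.146, -0.174 and -0.251 on the log2 scale, although the groups overlapped because replicate 2 was low in each. The log2 fold change was -0.19 (SE 0.0924, 95% interval -0.399 to 0.0151), with an adjusted p by edgeR of 0.954 without and 0.013 with the block.

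The trimer partners did not share the direction. NUP58 was at 286.2, 247.4 and 259.3 CPM in LMB and at 309.7, 250.5 and 274.8 CPM in LMB+auxin, higher in 3 of 3 pairs, with a log2 fold change of 0.07 (SE 0.0908). NUP54 had 0.04 (SE 0.0894), and NUP98, whose GLFG repeats make up much of the barrier, had 0.08 (SE 0.068). The difference of NUP62 from NUP54 or NUP58 was not tested. Counted neighbours share 20.1% of the exonic bases of NUP62: ATF5 lies on the opposite strand, and IL4I1 and ENSG00000269179 on the same strand. The levels of IL4I1 were 10.1, 8.98 and 11.3 CPM in LMB and 7.71, 7.97 and 9.01 CPM in LMB+auxin, and their part in the NUP62 value was not tested.

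With the block, then, 3 of 32 nucleoporins passed an adjusted p under 0.05 upward (TPR, NUP107 and NUP205), beside 1.12% of all genes, and 1 of 32 downward (NUP62), beside 3.27%, all by less than 1.3-fold. This rule, without the fold minimum, was added after the data were seen. By DESeq2 with the same block 0 of the 4 passed, with an adjusted p of 0.0988 for TPR, 0.224 for NUP107, 0.174 for NUP205 and 0.174 for NUP62. None of the 4 held in every smaller block fit by edgeR: without replicate 2 their adjusted p ran from 0.124 for NUP107 to 0.247 for TPR, without replicate 3 from 0.127 for TPR to 0.475 for NUP62, and without replicate 1 it was 0.0411 for TPR, 0.00135 for NUP62, 0.323 for NUP107 and 0.181 for NUP205. The sign of each of the 4 was the same in those fits, but the size was not. The log2 fold change of NUP107 was 0.16 with the block and 0.079 without replicate 1, and with no block it was 0.055 without LMB+auxin replicate 1. Dropping replicate 2 of LMB gave NUP107 a log2 fold change of 0.104, and dropping replicate 2 of LMB+auxin gave 0.255. NUP62 with no block was at -0.124 when LMB replicate 3 was dropped and at -0.123 when LMB+auxin replicate 2 was.

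The membrane nucleoporins anchor the pore in the nuclear envelope. NDC1, a multi-pass protein required for that anchoring, was at 206.3, 178.7 and 200.7 CPM in LMB and at 226.9, 181.1 and 208.2 CPM in LMB+auxin, with a log2 fold change of 0.07 (SE 0.0935) and 3 of 3 pairs higher. It was the only one of the 4 above 0. NUP210, a glycoprotein whose bulk lies in the lumen of the envelope, had a log2 fold change of -0.01 with the largest standard error of all 32 genes (0.179). Its values by library are given with the replicates.

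POM121 and POM121C, membrane proteins that recruit the scaffold, are near-identical copies on chromosome 7, and their counts are uncertain for that reason. Of the 100-base stretches of the POM121 transcript, 31.05% also occur in POM121C and 20.04% in POM121B, and 31.81% of those of POM121C occur in POM121. A run of 459 coding bases is identical in both genes, longer than a read of the study. The stretch of 120 coding bases shown here, from exon 3 of POM121 (plus strand, chr7:72926802-72926921, GRCh38) and exon 5 of POM121C (minus strand, chr7:75440996-75441115), was chosen because it differs at 4 bases, in capitals, which are all a read from it offers to tell the genes apart.
POM121: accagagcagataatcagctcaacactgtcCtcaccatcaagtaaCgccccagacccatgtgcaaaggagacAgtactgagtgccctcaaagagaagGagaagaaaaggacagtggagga
POM121C: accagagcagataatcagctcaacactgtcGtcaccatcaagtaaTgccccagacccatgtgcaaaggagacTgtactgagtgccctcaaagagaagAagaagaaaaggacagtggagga
POM121 was at 33.34, 32.85 and 32.94 CPM in LMB and at 28.68, 33.04 and 30.85 CPM in LMB+auxin, a log2 fold change of -0.10 (SE 0.0775). POM121C was at 16.06, 15.63 and 18.13 CPM in LMB and at 15.15, 17.72 and 15.54 CPM in LMB+auxin, with -0.04 (SE 0.101). Neither differed beyond its spread.

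On the cytoplasmic side 5 of 6 genes had a log2 fold change above 0. NUP42, which works with the helicase machinery that strips mRNPs at the cytoplasmic face, had the largest difference of those with the same sign in every pair. It was at 32.47, 23.71 and 30.97 CPM in LMB and at 38.24, 26.54 and 31.14 CPM in LMB+auxin, a log2 fold change of 0.14 (SE 0.15). Its spread within a group was larger than the difference, because replicate 2 was low in each group. Of its transcript, 32.0% of the 100-base stretches also occur in ENSG00000285926, an overlapping gene model that the count table does not list.

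RANBP2, the large filament protein that binds Ran and carries SUMO-modified RANGAP1, was at 557.0, 485.3 and 572.4 CPM in LMB and at 656.2, 517.8 and 582.2 CPM in LMB+auxin. Its log2 fold change was 0.12 (SE 0.0981), with an adjusted p of 0.0995 by edgeR with the block. The RGPD genes, copies of RANBP2 that share up to 9.93% of its 100-base stretches each, were at 0.808 CPM or less in every library. AAAS, a WD-repeat nucleoporin, was at 40.66, 42.25 and 39.18 CPM in LMB and at 34.27, 41.38 and 38.26 CPM in LMB+auxin, lower in 3 of 3 pairs, with a log2 fold change of -0.10 (SE 0.0843).

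NUP88 and NUP214 form the platform of the cytoplasmic filaments. NUP88 was at 185.1, 175.2 and 189.8 CPM in LMB and at 205.3, 184.0 and 199.5 CPM in LMB+auxin, a log2 fold change of 0.10 (SE 0.069). RABEP1, on the opposite strand, shares 31.7% of the exonic bases of NUP88 and was at 96.5, 86.7 and 91.7 CPM in LMB and at 108.1, 96.9 and 101.5 CPM in LMB+auxin. The strand setting of the counting is not given in the sources used here, so reads of NUP88 and RABEP1 cannot be told apart over that stretch. NUP214 was at 47.57, 45.41 and 55.76 CPM in LMB and at 48.94, 50.96 and 51.44 CPM in LMB+auxin. It had a log2 fold change of 0.02 (SE 0.0858) and RAE1, an mRNA export factor that binds NUP98, had 0.07 (SE 0.0783).

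More nucleoporins differed by replicate number than by treatment. In the block fit, the replicate terms passed an adjusted p under 0.05 by edgeR for 20 of 32 nucleoporins, beside 33.8% of all genes. The other 12 were TPR, ZC3HC1, NUP37, SEC13, AHCTF1, NUP188, NUP98, POM121, POM121C, NUP214, NUP88 and AAAS. Replicate 2 stood apart, as 23 of 32 were lowest in replicate 2 in both groups, beside 28.7% of all genes, and 3 of 32 (NUP160, NUP210 and AAAS) were highest there in both, beside 26.9%. The median difference of replicate 2 from the mean of replicates 1 and 3 was -0.138 (log2 CPM) over the nucleoporins in LMB and -0.185 in LMB+auxin, and -0.018 and 0.00082 over all genes tested. Summed over the 32 genes, the level was 4931.7, 4556.7 and 5029.8 CPM in LMB and 5335.0, 4719.5 and 5152.3 CPM in LMB+auxin, lowest in replicate 2 of each group.

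**Figure D2:**
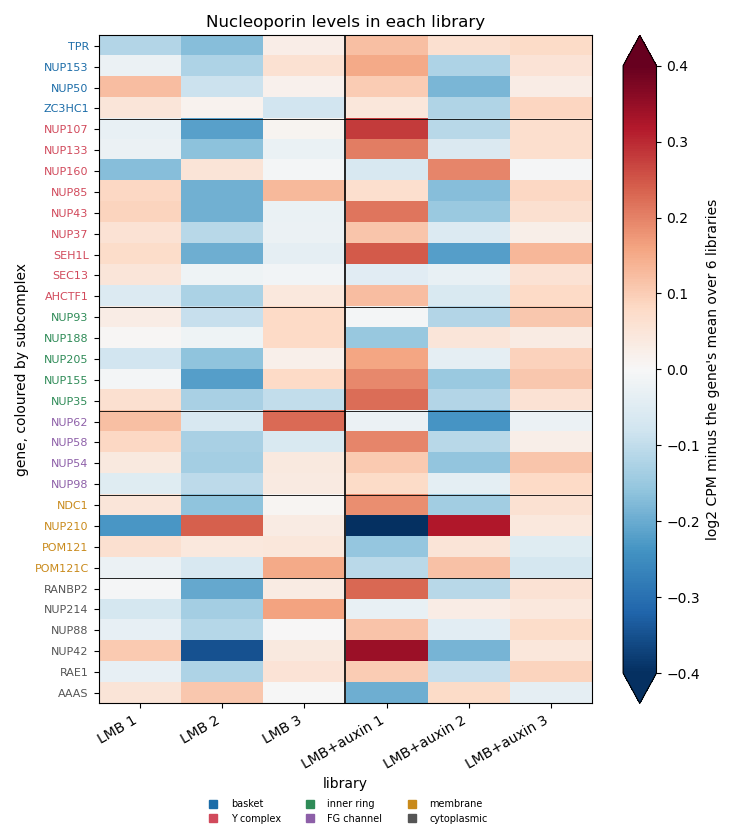
Level of each of the 32 nucleoporins in the 6 libraries, as log2 CPM minus the mean of the gene over all 6, with the scale running from -0.4 to 0.4. The columns of replicate 2 are mostly blue in both groups, LMB+auxin replicate 1 is mostly red, and NUP210 runs the other way.

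NUP42 had the deepest dip in LMB, at -0.419 in LMB and -0.378 in LMB+auxin (log2 CPM, replicate 2 minus the others, replicate terms adjusted p = 5.06e-07 by edgeR). SEH1L, the Y complex subunit also found in the GATOR2 complex of nutrient sensing, stood at -0.213 and -0.410 (adjusted p = 1.10e-06 by edgeR), from 123.5, 102.5 and 114.4 CPM in LMB and 139.2, 100.7 and 128.6 CPM in LMB+auxin. NUP155 stood at -0.256 and -0.300 (adjusted p = 5.72e-06 by edgeR), from 291.7, 251.9 and 310.1 CPM in LMB and 335.3, 264.6 and 316.3 CPM in LMB+auxin. In all 3 genes replicate 2 was the lowest library of each group. All 4 FG channel genes, 4 of 5 inner ring genes and 7 of 9 Y complex genes shared this order, against 1 of 4 membrane genes.

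NUP210 had the opposite order and the smallest replicate p of the 32. NUP210 (ENSG00000132182, 40 exons, minus strand, chr3:13316235-13420322) was at 142.5, 197.6 and 171.2 CPM in LMB and at 127.1, 209.0 and 172.4 CPM in LMB+auxin. Replicate 2 was the highest library of each group, by 0.339 in LMB and 0.498 in LMB+auxin over the other replicates (log2 CPM), with an adjusted p of 9.99e-15 for the replicate terms by edgeR. Replicates 1 and 3 also differed from each other, and NUP210 was the only nucleoporin whose replicate terms passed when replicate 2 was left out, 1 of 32 beside 2.56% of all genes. NUP160, a Y complex subunit, went the same way less strongly, at 142.0, 165.5 and 158.6 CPM in LMB and 152.7, 182.8 and 159.0 CPM in LMB+auxin. NUP210 and NUP160 passed the replicate test (adjusted p = 0.00168 by edgeR for NUP160), and AAAS did not (adjusted p = 0.162).

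**Figure D3:**
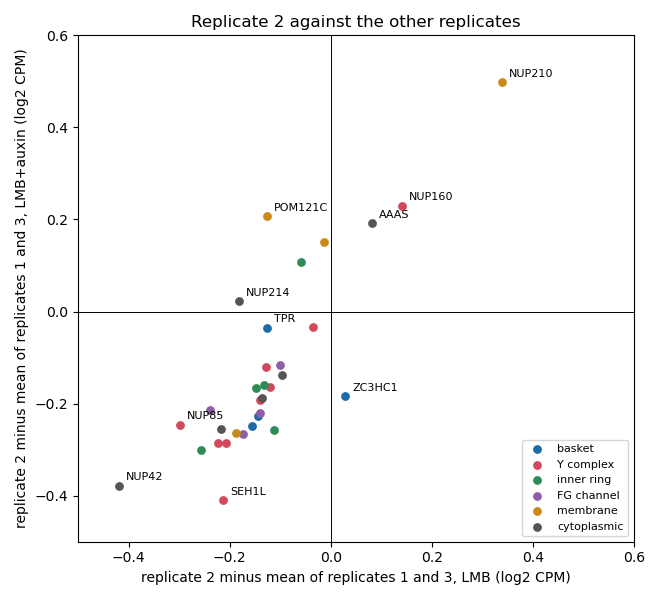
Difference of replicate 2 from the mean of replicates 1 and 3 in log2 CPM, in LMB (horizontal) and LMB+auxin (vertical), one point per nucleoporin coloured by subcomplex. Most points lie at lower left, where replicate 2 is low in both groups, and NUP210, at 0.339 and 0.498, lies farthest to the upper right, beyond NUP160 and AAAS.

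LMB+auxin replicate 1 stood out on the high side. It held the highest value of 17 of 32 nucleoporins, against 23.6% of all genes, and LMB replicate 2 held the lowest value of 19 of 32, against 20% of all genes. The labels name no batch or date for the replicates. Each replicate number is present in both groups, so the block fit takes out what same-numbered libraries share and gives the treatment values within pairs. It does not take out a deviation of a single library. LMB replicate 1 held the highest value of 2 of 32 nucleoporins, beside 20.5% of all genes. The high values of LMB+auxin replicate 1 thus stay in the differences of pair 1, and their source was not tested.

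Levels per length spread widely although the proteins are built into a common assembly. Counts were divided by the length of the canonical transcript in kb, and mean CPM per kb in LMB ran from 2.83 ± 0.228 for POM121C to 111 ± 2.78 for SEC13 (SD, n = 3). After SEC13 came NUP50 at 77.4 ± 5.57, NUP58 at 62.4 ± 4.69, SEH1L at 61.3 ± 5.68, NUP54 at 60.1 ± 4.1 and NUP98 at 57.7 ± 2.87 CPM per kb, and the last 4 of these lay within their SDs of one another. The lower end held POM121 at 5.66 ± 0.0444, NUP214 at 6.55 ± 0.721, AHCTF1 at 12.5 ± 0.73 and ZC3HC1 at 13.7 ± 0.604 CPM per kb, with TPR at 17.3 ± 1.25. Of the 100-base stretches of POM121 and POM121C, 45.41% and 41.35% also occur in other genes. How reads with several matches were counted is not known, so the low places of these genes are uncertain.

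Levels also differed within each subcomplex. In the basket NUP50 stood at 77.4 and ZC3HC1 at 13.7 CPM per kb, and in the Y complex SEC13 at 111 and AHCTF1 at 12.5. In the inner ring the range was from 17.4 ± 1.06 for NUP93 to 35.9 ± 2.26 for NUP205, in the FG channel from 22.9 ± 2.31 for NUP62 to 62.4 for NUP58, in the membrane group from 2.83 for POM121C to 42.9 ± 3.2 for NDC1, and on the cytoplasmic side from 6.55 for NUP214 to 50.8 ± 2.06 for NUP88. The order depends on the length used. Divided by all annotated exonic bases instead, NUP50 ranked highest at 48.4 CPM per kb and SEC13 ranked 6 at 28.1, while POM121C stayed last at 1.89. SEH1L moved from rank 4 to rank 23 and NUP54 from rank 5 to rank 25. The FG channel then ran from 8.67 for NUP54 to 29.9 for NUP98, and the inner ring from 7.4 for NUP35 to 31.1 for NUP155. RANBP2 was then highest on the cytoplasmic side at 20.1, and NUP85 lowest in the Y complex at 10.7. The other named ends of the subcomplexes stayed the same genes. With auxin the values were within the fold changes given, for example 110 ± 4.27 for SEC13 and 75.5 ± 7.56 CPM per kb for NUP50.

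**Figure D4:**
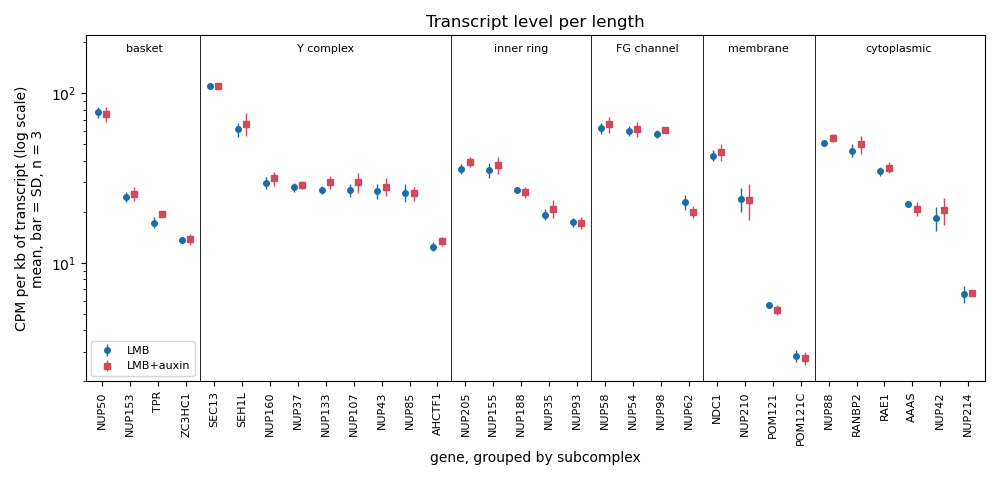
Level per kb of canonical transcript (CPM per kb, log axis) for the 32 nucleoporins, grouped by subcomplex, with the mean and SD of 3 libraries in LMB (circles) and LMB+auxin (squares). SEC13 is highest at 111 and POM121C lowest at 2.83 CPM per kb in LMB, and the groups lie close together for every gene.

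Fold changes and the differences of replicate 2 both varied with the base composition of the transcript. Across the 32 nucleoporins the log2 fold change had a Spearman correlation of -0.661 with the GC content of the canonical transcript, beside -0.477 across 12663 protein-coding genes tested, all measured in the same 6 libraries. The 6 nucleoporin transcripts of highest GC content, 54.8 to 58.4%, were those of SEC13, NUP62, POM121C, AAAS, POM121 and NUP210, and 6 of 6 had a log2 fold change below 0. SEC13 (-0.0117, SE 0.063), NUP210 (-0.00801, SE 0.179) and POM121C (-0.0432, SE 0.101) lay within their standard errors of 0. The cut at 6 genes was not among the planned comparisons, and the share below 0 over all genes of such GC content was not computed. Of the other 26, at 38.5 to 52.5% GC, 4 were below 0 (NUP50, NUP85, NUP93 and NUP188). Exon number had a Spearman correlation of 0.26 with the log2 fold change over the nucleoporins and of 0.256 over the protein-coding genes. Replicate 2 minus the mean of replicates 1 and 3, averaged over the 2 groups, had a Spearman correlation with GC content of 0.513 over the nucleoporins. Over the protein-coding genes it was 0.231. Of the genes highest in replicate 2 in both groups, NUP210 was at 58.4% GC, AAAS at 57.4% and NUP160 at 42.7%. NUP62, at 56.6%, was lowest there in both groups. The source of this relation was not tested.

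**Figure D5:**
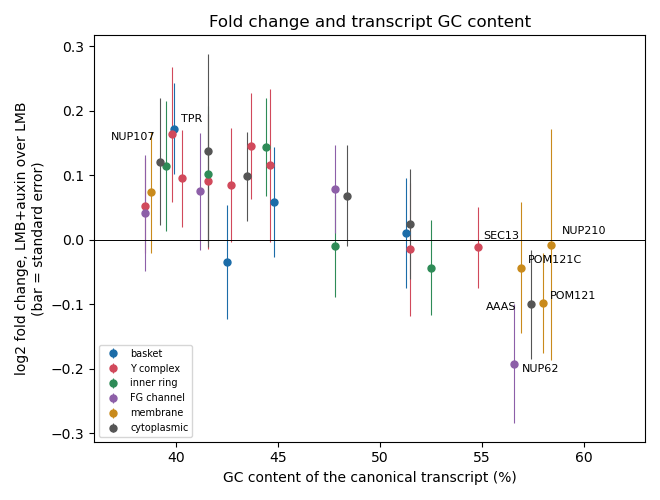
Log2 fold change of LMB+auxin over LMB (vertical, bars are standard errors) against the GC content of the canonical transcript in percent (horizontal) for the 32 nucleoporins. Values lie mostly above 0 on the left, and the 6 genes at 54.8% GC and above all lie below 0. The bars of SEC13, NUP210 and POM121C cross 0.

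When a smooth trend on GC content was removed from each library, a step added after the data were seen, the median log2 fold change of the nucleoporins was 0.0403 with 25 of 32 above 0, beside 0.0116 over 16748 genes with a GC value, and the Spearman correlation with GC content over the 32 was -0.435. TPR was then at 0.13 (SE 0.0606), NUP107 at 0.12 (SE 0.0806), NUP205 at 0.11 (SE 0.0615), NUP133 at 0.11 (SE 0.0645) and NUP62 at -0.14 (SE 0.104). With both the trend removed and the block, the adjusted p by edgeR was 0.00808 for TPR, 0.019 for NUP107, 0.0183 for NUP205, 0.0265 for NUP133 and 0.0199 for NUP62. With the trend removed and no block, none of these genes had an adjusted p under 0.05. The share of all genes under 0.05 in that block fit is not given here, so these values have no background beside them. SEC13, NUP210 and POM121C changed sign under that step, to 0.0265, 0.0515 and 0.0105, all smaller than their standard errors.

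Promoters are shown for TPR and NUP62, which had the highest and the lowest log2 fold change, and for NUP210, whose replicate order was opposite to most. They are RefSeq windows of 300 bases in GRCh38.p14, from 250 before to 50 after the RefSeq start of the gene, written along the strand of the gene, and 30 of the 32 nucleoporins had one. Capitals mark matches, on either strand, to 7 motifs: CCAAT, CCGGAAGT (ETS), TGCGCATGC (NRF1), AAGATGGCG (YY1), TGACGTCA (CRE), TTTCCCGC (E2F) and CACGTG (E-box). The windows are on chr1:186375204-186375503 (minus strand) for TPR, chr19:49929455-49929754 (minus strand) for NUP62 and chr3:13420273-13420572 (minus strand) for NUP210. The GENCODE spans given above start further upstream for TPR and NUP62, so their windows lie inside those spans.
TPR: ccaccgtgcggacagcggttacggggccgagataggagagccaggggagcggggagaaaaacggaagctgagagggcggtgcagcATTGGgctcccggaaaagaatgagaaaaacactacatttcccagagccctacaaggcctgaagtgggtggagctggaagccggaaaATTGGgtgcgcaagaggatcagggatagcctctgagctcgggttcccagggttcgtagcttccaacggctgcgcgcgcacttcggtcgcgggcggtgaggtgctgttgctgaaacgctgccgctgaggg
NUP62: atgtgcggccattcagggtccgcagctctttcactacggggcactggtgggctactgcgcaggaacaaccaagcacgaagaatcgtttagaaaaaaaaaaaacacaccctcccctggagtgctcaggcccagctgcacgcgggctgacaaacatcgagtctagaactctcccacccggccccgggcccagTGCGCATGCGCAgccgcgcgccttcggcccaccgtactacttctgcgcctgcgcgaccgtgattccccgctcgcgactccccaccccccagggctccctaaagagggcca
NUP210: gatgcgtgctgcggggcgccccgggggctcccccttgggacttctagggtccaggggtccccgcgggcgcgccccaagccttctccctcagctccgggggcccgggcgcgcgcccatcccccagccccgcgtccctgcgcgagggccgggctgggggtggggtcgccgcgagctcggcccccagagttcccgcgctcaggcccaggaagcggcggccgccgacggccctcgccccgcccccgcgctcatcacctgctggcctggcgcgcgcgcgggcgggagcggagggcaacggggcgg
The TPR window held CCAAT on the opposite strand at 2 places, and the NUP62 window held the NRF1 letters, which overlap on both strands. The NUP210 window held none of the 7 and had a GC content of 81.3%, against 61.3% for TPR and 63% for NUP62. CCAAT was found in 11 of 30 nucleoporin windows (36.7%), beside 36.7% of 11099 windows of genes tested, and the NRF1 letters in 1 of 30, beside 2.79%. The ETS letters were found in 7 of 30 (23.3%), beside 8.67%, and the YY1 letters in 5 of 30 (16.7%), beside 3.9%. The ETS windows were those of NUP160, NUP35, NUP54, NUP58, POM121, POM121C and SEC13, and the YY1 windows those of NUP160, NUP188, NUP205, NUP88 and ZC3HC1. CRE was in 3 of 30 (10.0%), beside 3.28%, the E-box in 2 of 30, beside 10.0%, and E2F in 0 of 30, beside 2.67%. These are counts of letters and not of bound factors.

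The partners of the pore, a list of 35 genes for mRNA export at the pore, TREX-2, the RANBP2 and basket partners, pore assembly and the nuclear envelope, gave 0 of 35 called without the block, beside 0.00589% of all genes, and 0 of 35 with it, beside 1.19%. The median log2 fold change was 0.0353, with 27 of 35 above 0, beside 49.2% of all genes, and 34 of 35 intervals lay inside 1.3-fold, beside 57.1%. The groups did not overlap for 3 of 35 upward (CETN2, SENP2 and TOR1AIP1), beside 4.89% of all genes, and for 2 of 35 downward (BICD2 and SUN2), beside 6.63%. CETN2, a centrin of the TREX-2 complex, was at 25.60, 27.23 and 25.20 CPM in LMB and at 32.15, 29.75 and 27.97 CPM in LMB+auxin. Its groups did not overlap, with a log2 fold change of 0.20 (SE 0.0824) and an adjusted p by edgeR of 0.954 without and 0.0439 with the block, while DESeq2 with the block gave 0.354. By replicate, 12 of 35 partners (34.3%) were lowest in replicate 2 in both groups, beside 28.7% of all genes. The pore assembly genes KPNB1 and TNPO1, import receptors that also chaperone nucleoporins, were among the 12, at -0.388 and -0.289 in LMB (log2 CPM, replicate 2 minus the others).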

How the data were processed

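Total RNA of 6 libraries (3 LMB, 3 LMB+auxin) was depleted of ribosomal RNA, sequenced as paired-end reads, aligned to GRCh38 with STAR and counted per Ensembl gene with featureCounts by the authors. The submitters' processing notes name CASAVA 1.8.2, STAR 2.6.1c and featureCounts 1.5.2. The methods of the paper name other releases of STAR and featureCounts, and the strand setting and the handling of reads with several matches are stated by none of the sources used here. The deposited values are raw counts per gene, without normalization.

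Gene symbols, coordinates and transcript lengths came from GENCODE 44 (56948 of 58051 identifiers matched), a later release on the same assembly. Genes above 1 CPM in at least 3 libraries (16974) were tested in R 4.3.3 with edgeR 4.0.16 (TMM scaling, estimateDisp, robust glmQLFit, glmQLFTest), Benjamini-Hochberg adjusted over all of them. A call required an adjusted p under 0.05 and 1.3-fold. CPM values were scaled by the TMM factors. The standard error was the log2 fold change over the square root of F, and the 95% interval used the t distribution on the degrees of freedom of the fit. Shared sequence was measured as the share of 100-base stretches of the canonical transcript found in transcripts of other genes. The edgeR fit with TMM scaling, with and without the replicate block, and its test of the replicate terms were also run on simulated counts. The other fits were not. Those counts were drawn from the model that edgeR itself assumes, with dispersions estimated from these libraries. The run therefore cannot show how the tests behave when a single library deviates. Chi-square values per gene between libraries of a group were 4.65 to 33.4, above the sampling noise of duplicate libraries, so all 6 were kept.

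The labels give the same replicate numbers in each group. Deviations from the group means correlated at 0.531, 0.691 and 0.273 for the same-numbered libraries of the 3 pairs, each over the limit of 0.1. Libraries of different number correlated at -0.573 to 0.146. LMB replicate 1 with LMB+auxin replicate 3 (0.146) and LMB replicate 3 with LMB+auxin replicate 1 (0.142) were over that limit too. The limit alone therefore does not single out the numbered pairs, and the pairing was least clear for pair 3. The numbers were taken to pair the libraries, and values with the replicate block are given beside results whose call they change. The biological coefficient of variation was 0.0989 without and 0.0406 with the block. The authors used DESeq2, and the paper states no replicate block. Alternatives were DESeq2 1.42.0, limma-voom (limma 3.58.1), other scalings and filters, the block, and each library or pair left out. The members, subcomplexes and lists were chosen with earlier results of these data known. Full values are given for TPR, NUP153 and NUP50, for genes past an adjusted p under 0.05 in either fit or an unadjusted p under 0.05, and in each subcomplex for the largest difference shared by all 3 pairs and the highest and lowest level per length. AAAS, AHCTF1, NUP133, NUP160, NUP188, RANBP2, SEH1L, NUP155, POM121 and the partners KPNB1, TNPO1, SENP2, TOR1AIP1, BICD2 and SUN2 were added after their values were seen.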

Additional observations from a re-analysis of the deposited data

How the results depend on the processing

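The number of nucleoporins called was 0 of 32 in every fit with the fold minimum, and the count of 95% intervals inside 1.3-fold ran from 22 to 32. Over all genes the call count of 1 was 202 with the replicate block, 11 by DESeq2, 30 by DESeq2 with the block, 0 with library size alone as scaling (736 at an unadjusted p under 0.05), 39 without a filter on low counts, 0 with the GC trend removed (610 unadjusted) and 149 with the trend removed and the block. It ran from 0 to 5 when a library was left out without the block, and it was 133, 158 and 134 with the block without replicate 1, 2 and 3. At an adjusted p under 0.05 alone, edgeR with the replicate block passed 745 genes, 4 nucleoporins and 1 partner, and DESeq2 with the block 93 genes, 0 nucleoporins and 0 partners. With all libraries and the GC trend left in, the block changed no other call on a nucleoporin or partner. With the trend removed, the block also brought NUP133 under 0.05, at an adjusted p of 0.0265 by edgeR. That step was added after the data were seen, and no share of all genes under 0.05 is given for it. With the trend left in, the adjusted p of NUP133 with the block was 0.0581 by edgeR and 0.225 by DESeq2.

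With 1 library left out, the median log2 fold change ran from 0.0124 to 0.128 over all nucleoporins, 0.0152 to 0.149 in the Y complex, 0.0257 to 0.197 in the inner ring, -0.00523 to 0.122 in the FG channel, -0.00737 to 0.101 in the basket, 0.0248 to 0.136 on the cytoplasmic side and -0.131 to 0.0102 in the membrane group, and with a pair left out the replicate terms passed for 1 to 24 nucleoporins, 1 being without replicate 2. With the GC trend removed the Y complex median was 0.0487, and 0.047 with the block as well. The cause was not tested. Of 640 recomputed single-gene values 43 changed sign, over 14 genes, and 36 of the 43 were fits with libraries left out. The others were ZC3HC1 at -0.000454 with library size alone, and SEC13, NUP210 and POM121C at 0.0265, 0.0515 and 0.0105 with the GC trend removed and at 0.0267, 0.0476 and 0.00762 with the block as well. With 1 library left out the log2 fold change ran from -0.0948 to 0.046 for NUP50, -0.101 to 0.0644 for NUP85, -0.0382 to 0.0092 for SEC13, -0.062 to 0.0458 for NUP93, -0.0282 to 0.118 for NUP214, -0.00763 to 0.126 for NUP54, -0.187 to 0.162 for NUP210, -0.0255 to 0.0708 for ZC3HC1, -0.114 to 0.0255 for POM121C, -0.00532 to 0.131 for NUP153, -0.078 to 0.0171 for NUP188, -0.0091 to 0.147 for NUP58, -0.00434 to 0.158 for NDC1 and -0.0102 to 0.258 for NUP42. With the block, the signs that changed were NUP153 at -0.00357, SEC13 at 0.0289, NUP93 at 0.00279, NUP188 at 0.00706, NUP210 at 0.0453 without replicate 1, NUP93 at 0.00118, NUP214 at -0.0346 without replicate 2, and ZC3HC1 at -0.0622, NUP85 at 0.00966, POM121C at 0.0564 without replicate 3.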
